A study of Danio rerio with 17 samples.

Results

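Prdm3 is a zinc finger protein of the PRDM family, whose members carry a PR domain related to the SET domain of histone methyltransferases. PRDM proteins bind DNA through their zinc fingers and recruit chromatin enzymes, and Prdm3 (Mecom in mammals) is known for roles in blood stem cells and in the craniofacial skeleton. Cranial neural crest cells leave the dorsal neural tube, fill the pharyngeal arches and form most cartilage and bone of the face, together with pigment cells, glia and cranial neurons.

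The data described here are the genes that the authors listed for prdm3-/- zebrafish against wild type. Cells positive for the sox10:GFP transgene were sorted from dissociated pooled embryos at 48 hours post fertilization, labelled cranial neural crest, and their RNA was sequenced. The sox10 promoter is active in neural crest derivatives and also in the otic vesicle and oligodendrocyte lineage, so the sort is a transgene gate and not a pure cell type. The mutants are fish lacking prdm3 in every tissue, and the labels name no second allele or agent. All groups share the transgene, the stage and the sort. There were 3 prdm3 mutant libraries, numbered 1, 2 and 3 in the titles, and 2 wild type libraries in the comparison, numbered 2 and 3. Wild type 2 carries a prdm3 wild type column name and wild type 3 a prdm16 wild type column name, so the control group joins wild types from the sets of both lines. Nothing in the labels says whether the libraries came from separate clutches, and the spread between them may be partly technical.

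The deposited table held 1520 genes, out of 4169 genes listed in either RNA table of the series. The values are FPKM, fragments scaled by transcript length and by the mapped total of each library. Every row has an authors' p below 0.05 for the same contrast, so the rows were chosen by the difference described here. A gene that is missing from the table is not thereby unchanged or silent. The relation between the p and q values in the authors' deposited table corresponds to 11242 genes tested. The listed genes were 13.5% of those, the genes listed as higher in the mutant were 12.7% and those listed as lower were 0.783%. All counts below are of genes that passed the authors' selection, and they describe the list without testing it again.

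Of the 1520 genes, 1432 were higher and 88 lower in the mutants. Every listed gene had non-overlapping groups, which the selection favours and from which nothing is read. Among the higher genes the median difference in mean log2(FPKM + 1) was 0.64, with quartiles of 0.50 and 0.81, and the median ratio of group means was 1.75. Only 451 of the 1432 reached a ratio of 2. Among the lower genes the median difference was -0.91. The log2(FPKM + 1) scale understates the change of genes with FPKM near or below 1.

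By the mean over the 5 libraries, the 2 directions sat at different levels. Genes whose mean over the 5 libraries was below 1 FPKM comprised 55 higher and 26 lower, and those from 1 to 2 FPKM comprised 191 higher and 27 lower. From 5 to 10 FPKM there were 352 higher and 4 lower genes, and from 20 to 50 FPKM there were 135 higher and 2 lower. The median ratio of means for the higher genes was 2.95 below 1 FPKM, 1.74 from 5 to 10 FPKM and 1.48 from 20 to 50 FPKM. Lower genes were thus mostly sparse by this mean, which includes the mutants and is itself moved by the difference. In wild type alone the median was 2.54 FPKM for lower genes and 3.75 FPKM for higher genes. Of the 88 lower genes, 25 were listed at 0 in at least 1 library.

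**Figure D1:**
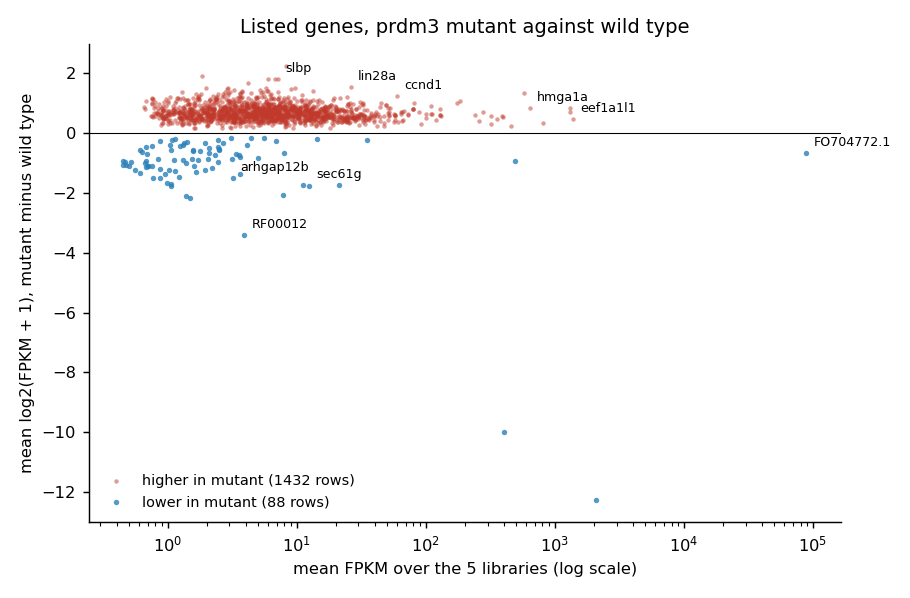
Difference in mean log2(FPKM + 1), mutant minus wild type, against the mean FPKM over the 5 libraries on a log scale, 1 point per listed gene. The 1432 higher genes form a band with a median of 0.64, while most of the 88 lower genes lie at low FPKM and 2 snoRNA copies lie near -10 and -12.

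The 3 mutant libraries were not equally far from wild type. Mutant 2 was the highest mutant library in 617 of the 1432 higher genes, mutant 3 in 503 and mutant 1 in 312. Mutant 1 was the lowest mutant library in 666 of them. The median difference from the wild type mean over the higher genes was 0.58 in mutant 1, 0.66 in mutant 2 and 0.63 in mutant 3. Wild type 2 and wild type 3 had a median absolute difference of 0.14 between them in these genes. The selection favours genes with a small spread within groups, so nothing is read from this closeness. The median FPKM over all listed genes was 3.61 and 3.72 in the wild types and 6.07, 6.40 and 6.30 in the mutants.

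The share of the most abundant row in the summed FPKM of listed genes moved with the groups. FO704772.1, a gene with no symbol in the identifier table, was the most abundant row by far, at 120204 and 108402 FPKM in wild type 2 and 3 and at 87464, 67004 and 61209 FPKM in mutants 1, 2 and 3. It made up 84.0% and 80.3% of the summed FPKM of listed genes in the wild types and 76.9%, 68.7% and 68.1% in the mutants. Its neighbour in name, FO704772.2, was at 747 and 622 FPKM in wild type and at 397, 368 and 307 FPKM in the mutants. FPKM is scaled by transcript length, so these percentages are not shares of the reads of a library. What part of the reads FO704772.1 took is not known. The part of its lower level in the excess of higher genes was not tested, and in bulk RNA fewer cells of a type and less RNA per cell cannot be told apart.

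The gene targeted in the mutants, mecom, is not among the listed genes and is not analysed here, so the genotype labels were not checked at that gene. Other PRDM genes were listed. Of 18 annotated PRDM genes, 4 were listed, all higher. Across the genome 5.09% of annotated genes were listed, and 94.2% of listed genes were higher, so this shared direction is not read. PRDM16, the closest relative of Prdm3 and the second gene mutated in the series, was at 54.2 and 49.5 FPKM in wild type 2 and 3 and at 72.2, 60.0 and 69.3 FPKM in mutants 1, 2 and 3. PRDM16 differed by 0.36 ± 0.11 (SE, log2 scale). It was at the edge of the selection, with p = 0.0496 and q = 0.369 in the authors' deposited table. PRDM16 was also by far the most abundant listed PRDM gene. The others were prdm2b, an H3 methyltransferase gene in mammals (7.27 and 7.85 FPKM against 11.6, 12.1 and 12.6 FPKM), prdm4 (2.53 and 1.94 against 3.03, 3.81 and 3.43 FPKM) and PRDM15 (0.687 and 0.850 against 1.35, 1.77 and 1.58 FPKM).

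Only 3 genes had q below 0.05 in the authors' deposited table, which is 0.0267% of the genes tested. The smallest q belonged to utp18, a component of the machinery that processes small ribosomal subunit RNA (q = 0.00314 in the authors' deposited table). It was at 1.54 and 1.51 FPKM in wild type and listed at 0 in all 3 mutant libraries, and such exact zeros may be failed estimates. The next was dnmt3ba, a DNA methyltransferase that sets new methylation marks, with q = 0.00430 in the authors' deposited table. It was at 5.67 and 5.72 FPKM in wild type and at 10.1, 10.2 and 10.1 FPKM in the mutants. The difference of 0.73 is ordinary for the list, and the libraries within each group were nearly equal. The last was a copy of the snoRNA SNORD15 (RF00067, ENSDARG00000113885), at 902 and 1120 FPKM in wild type and listed at 0 in all mutants (q = 0.0131 in the authors' deposited table). The same caution on zeros holds for it, and only 1 gene above 0 in all 5 libraries had q below 0.05. The next smallest q was 0.0656 and the largest 0.369, both from the authors' deposited table.

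Among named genes above 0 in all 5 libraries and reaching 5 FPKM in either group, the largest increase was in slbp, which binds the stem-loop of histone mRNAs. It was at 2.32 and 2.11 FPKM in wild type and at 6.73, 11.6 and 13.04 FPKM in the mutants, a difference of 1.79 ± 0.34. The next was lin28a, an RNA-binding protein that blocks let-7 maturation and marks early progenitors. It was at 9.53 and 13.5 FPKM in wild type and at 28.3, 49.2 and 29.6 FPKM in the mutants, with mutant 2 apart from the other mutants. Both genes listed under the name pou2f2a, an octamer-binding POU factor, followed, with differences of 1.48 and 1.43.

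The pigment enzymes dct and tyrp1b were in the same group, at 1.46 ± 0.43 and 1.38 ± 0.40. Their wild type libraries stood apart from each other, wild type 3 being the lower. The gene dct was at 5.50 and 2.51 FPKM in wild type 2 and 3, and at 14.1, 8.81 and 14.3 FPKM in the mutants. The ubiquitin ligase gene mgrn1a (1.39), the stress kinase gene mapk11 (1.38) and the synuclein gene sncgb (1.38) had similar differences. The remaining 3 were mrpl34, a mitochondrial ribosomal protein (1.35), mff, a mitochondrial fission factor (1.33), and rbbp8, which starts DNA end resection (1.31).

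Only 11 lower genes met the same conditions. The gene sec61g, a small subunit of the protein-conducting channel of the endoplasmic reticulum, had the largest difference, and its libraries were nearly equal within each group. It was at 22.4 and 21.9 FPKM in wild type and at 6.02, 5.84 and 5.50 FPKM in the mutants, a difference of -1.77 ± 0.04. The gene arhgap12b was at 5.51 and 6.12 FPKM in wild type and at 1.93, 0.977 and 1.38 FPKM in the mutants. The cytokine signalling inhibitor socs1a was at 4.38 and 8.44 FPKM against 1.99, 1.32 and 1.98 FPKM. Then came snrnp35 of the minor spliceosome (-0.84), the membrane skeleton gene epb41l3b (-0.82), the ER-phagy receptor gene tex264a (-0.74) and plxdc2 (-0.69). The last 4, pacsin1b, nt5c2b, rps13 and cyth1a, differed by -0.43 to -0.19.

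**Figure D2:**
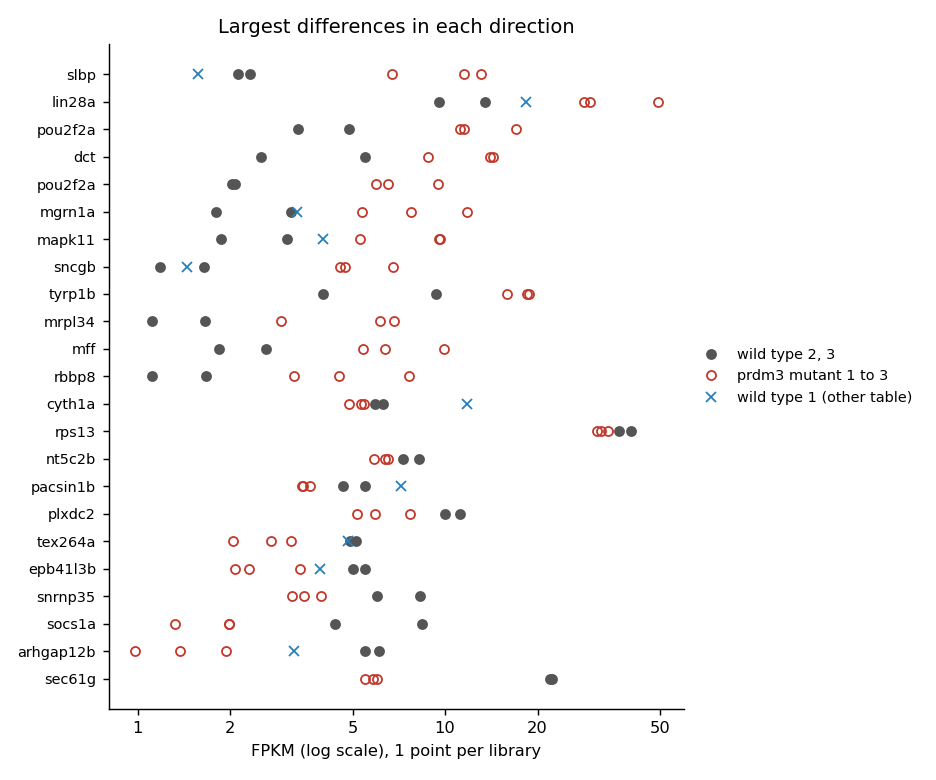
FPKM of each library on a log scale for the 12 higher and 11 lower genes with the largest differences, with filled points for wild type 2 and 3, open points for mutants 1 to 3 and crosses for wild type 1 where another table holds it. For slbp the mutants lie at 6.73 to 13.04 FPKM and the wild types at 2.11 and 2.32, whereas for cyth1a wild type 1 (11.8) lies far from the other libraries.

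Gene families were then formed by symbol. The 57 families took in 677 of the listed genes, and 217 listed genes carry clone or contig names. For scale, 5.09% of all annotated gene identifiers were listed. A family share counts annotated genes, silent ones included, so a low share can come from genes that these cells do not use. Of the 53 families with at least 3 listed members, 34 had only higher members, 18 had both directions and 1 had only lower members. Since 94.2% of all listed genes were higher, a family with only higher members is not read as a trait of that family. Medians among the 34 ran from 0.41 to 0.83, around the median of 0.62 over all listed genes.

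**Figure D3:**
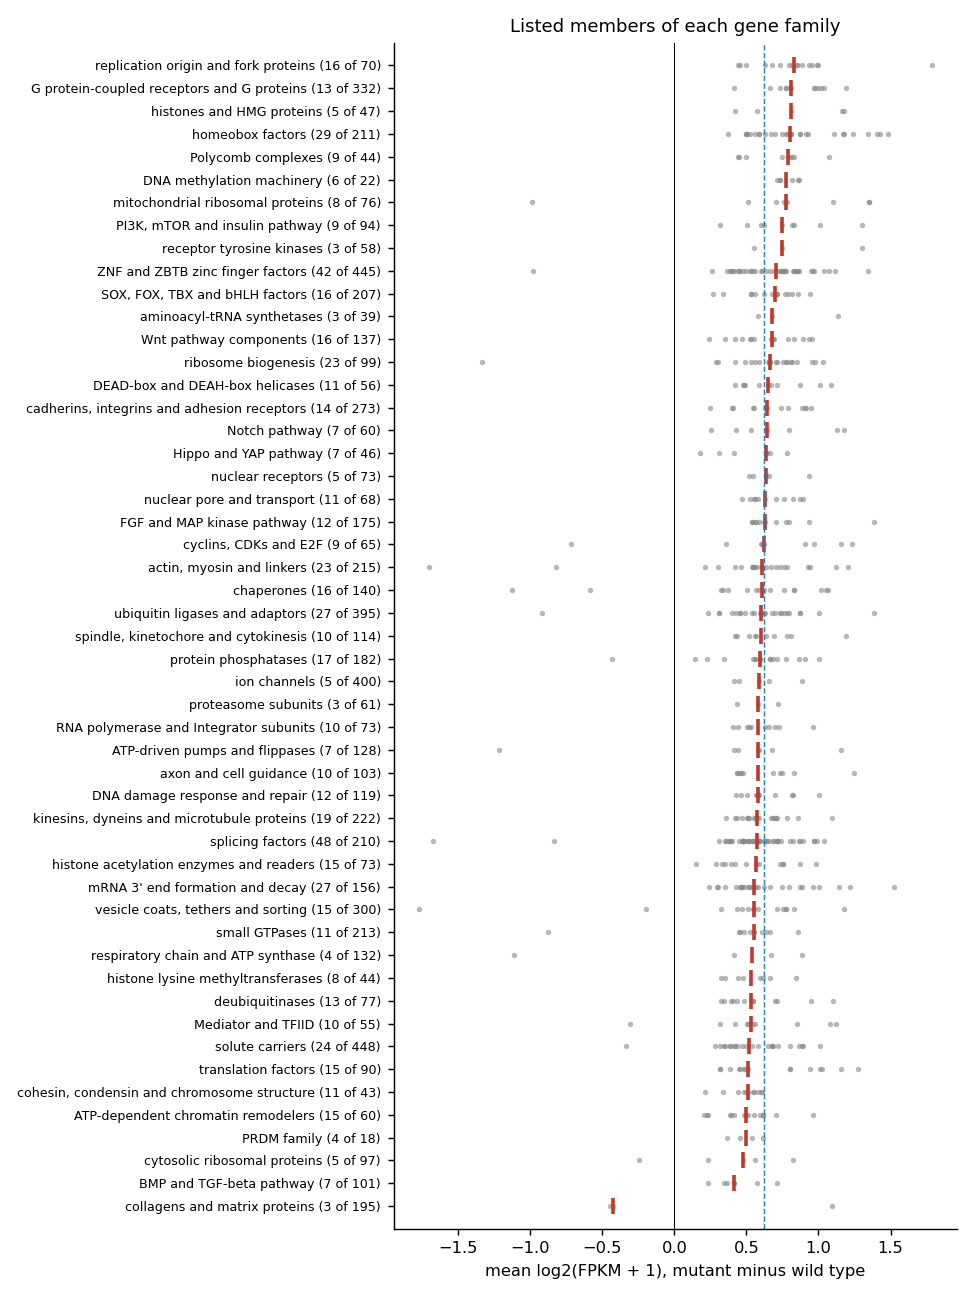
Difference in mean log2(FPKM + 1), mutant minus wild type, of each listed gene (grey points) in families with at least 3 listed members, structured noncoding RNAs, 1 signalling family and marker lists not drawn, with the family median as a red bar and the median of all 1520 listed genes as a dashed line; counts give listed and annotated members. The family medians drawn lie between 0.41 and 0.83 except for the matrix proteins at -0.42.

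The chromatin families held 62 listed genes, all higher, where 94.2% of all listed genes were higher. Heterochromatin proteins, which no family took in, are described apart and went both ways. Of 44 annotated histone lysine methyltransferases, 8 were listed, with a median difference of 0.53. None of 30 annotated lysine demethylases was listed. Since only 5.09% of all annotated genes were listed, and a missing gene is not thereby unchanged, no contrast between these classes is read. The setd2 gene, whose product methylates histones along transcribed genes, was at 9.72 and 10.2 FPKM in wild type and at 16.04, 16.04 and 17.0 FPKM in the mutants. The trithorax-type enzymes kmt2a (8.64 and 9.15 against 13.1, 14.9 and 14.4 FPKM) and kmt2cb (12.3 and 12.4 against 19.0, 17.0 and 16.8 FPKM) were higher by 0.61 and 0.48. The heterochromatin methyltransferase setdb1a had the largest difference of the 8, at 0.85 ± 0.12.

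Polycomb group proteins silence developmental genes in complexes that mark and compact chromatin. Of 44 annotated members, 9 were listed, with a median of 0.79. The accessory factors mtf2 (3.17 and 3.58 against 6.29, 6.50 and 6.91 FPKM) and jarid2b (14.1 and 13.9 against 24.0, 26.2 and 22.5 FPKM) differed by 0.79 and 0.74. The ring-complex member phc1 differed by 0.44. Histone acetylation enzymes and readers gave 15 of 73, with a median of 0.56, from 0.15 ± 0.02 for the co-repressor sin3b to 0.98. The acetyltransferase kat5b was at 2.21 and 2.62 FPKM in wild type and at 5.07, 5.04 and 5.64 FPKM in the mutants. The co-repressor genes sin3aa and mta2 differed by 0.39 and 0.58.

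ATP-dependent remodelers, which slide or evict nucleosomes, gave 15 of 60 with a median of 0.50. The BAF subunit smarcd1 was at 15.2 and 15.9 FPKM in wild type and at 32.7, 29.2 and 32.3 FPKM in the mutants, a difference of 0.96 ± 0.07. The ATPase smarca4a of the same complexes was at 37.7 FPKM in both wild types and at 43.5, 45.2 and 44.8 FPKM in the mutants, a difference of 0.23. Members of these complexes therefore differed unequally. The CHARGE syndrome gene chd7 (29.8 and 34.8 against 48.1, 50.9 and 50.6 FPKM) and the BAF subunit arid1aa (25.3 and 29.3 against 38.9, 39.3 and 39.5 FPKM) lay between them.

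Of 22 annotated DNA methylation genes 6 were listed, and they differed by 0.71 to 0.86. A second gene for an enzyme that sets new marks, dnmt3bb.2, chosen for display after its values were seen, was at 1.05 and 1.63 FPKM in wild type and at 3.18, 2.81 and 2.45 FPKM in the mutants. The maintenance enzyme dnmt1 was at 8.35 and 9.05 FPKM in wild type and at 15.7, 16.6 and 17.7 FPKM in the mutants. Its partner uhrf1, which binds hemimethylated DNA, was at 10.4 and 11.2 FPKM against 18.3, 19.6 and 21.4 FPKM. The demethylating enzyme tet2 was at 12.01 and 9.78 FPKM against 20.9, 20.6 and 19.8 FPKM. Listed genes for adding and for removing methyl groups were both higher. So were 94.2% of all listed genes, where 5.09% of all annotated genes were listed, and the shared direction is not read.

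Histone and high-mobility-group genes gave 5 of 47, with a median of 0.81. The architectural protein gene hmga1a was among the most abundant listed mRNAs, at 423 and 454 FPKM in wild type and at 679, 889 and 752 FPKM in the mutants. Its relative hmga2 was at 107 and 92.1 FPKM against 131, 136 and 134 FPKM. The least abundant, hmgb3b, had the largest difference, from 2.44 and 2.13 FPKM to 6.90, 6.87 and 5.58 FPKM. The histone variant gene h2afva was at 10.02 and 14.1 FPKM in wild type 2 and 3 and at 25.3, 26.4 and 32.5 FPKM in the mutants, but wild type 1, from the other RNA table, was at 26.3 FPKM and inside the mutant range.

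Genes of the neural crest and pharyngeal arches, mostly transcription factors, had the most listed members of all marker lists. Of 68 annotated genes on that list, 18 were listed and all were higher, with a median of 0.72. Across the whole list 94.2% of genes were higher, and 5.09% of all annotated genes were listed. The shared direction of the 18 is therefore near that of the list and is not read as a trait of arch genes. The nuclear receptor nr2f2, which shapes upper jaw identity together with nr2f1a, was at 11.98 and 11.1 FPKM against 22.6, 21.7 and 24.6 FPKM. The ventral arch factor hand2 was at 11.7 and 10.4 FPKM against 23.4, 17.6 and 18.0 FPKM. The second-arch selector hoxa2b was at 2.63 and 3.29 FPKM against 4.54, 6.78 and 5.08 FPKM. The values of hand2 and hoxa2b were chosen for display after they were seen.

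The distal-less factor dlx4b was at 3.97 and 4.25 FPKM in wild type and at 7.60, 9.31 and 8.15 FPKM in the mutants. The TALE cofactors, which bind DNA together with Hox proteins, were represented by meis1a (8.76 and 8.65 against 17.0, 15.2 and 13.8 FPKM) and meis2b (9.40 and 9.94 against 14.1, 16.2 and 16.3 FPKM). Others listed were foxd1, msx1b, alx4a, hoxb2a, itga8, nr2f1a, prrx1a, six2a, foxf2a, meis3 and meis2a. The defining crest genes sox10, foxd3, crestin, tfap2a, twist1a and dlx2a are not among the listed genes, so the sorted identity was not checked on them in these 5 libraries.

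**Figure D4:**
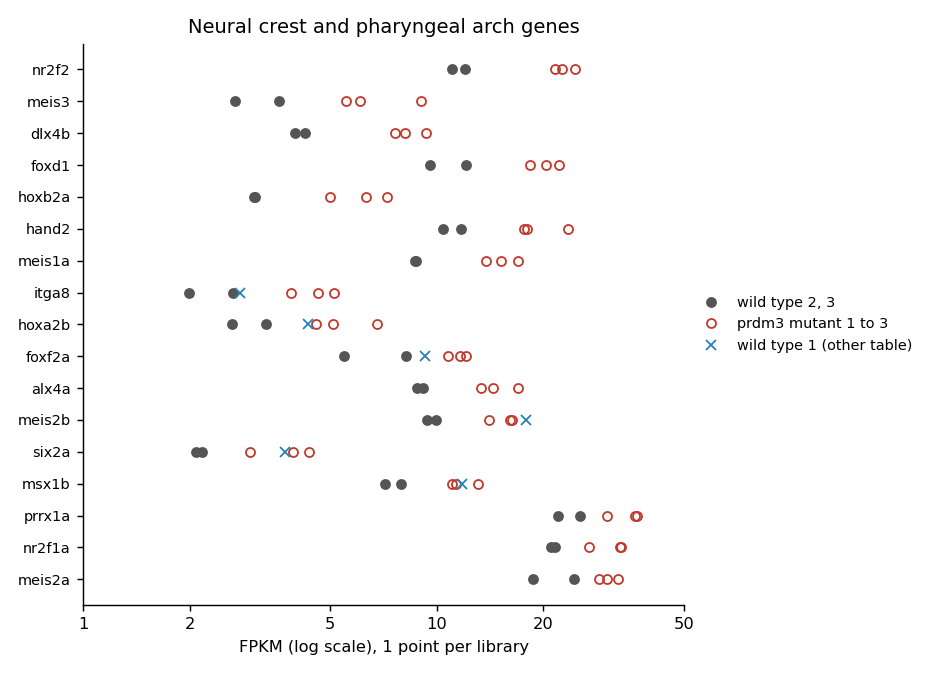
FPKM of each library on a log scale for 17 of the 18 listed neural crest and pharyngeal arch genes, with filled points for wild type 2 and 3, open points for mutants 1 to 3 and crosses for wild type 1 in the 6 genes where another table holds it. For meis2b wild type 1 (17.9 FPKM) lies above all mutants, and for msx1b (11.8) and six2a (3.73) it lies inside the mutant range.

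Wild type 1, a library that the selection of the list did not use, was held for 6 of the 18, and it lay on the wild type side of every mutant in itga8 (2.77 FPKM), foxf2a (9.27 FPKM) and hoxa2b (4.33 FPKM). It lay inside the mutant range in msx1b (11.8 FPKM) and six2a (3.73 FPKM), and above it in meis2b (17.9 FPKM). The median position of wild type 1 in these 6 genes was 81.0% of the way from the mean of wild type 2 and 3 to the mutant mean.

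The wider homeobox family gave 29 of 211 annotated genes, all higher, with a median of 0.80. The octamer factor pou2f1b was at 6.30 and 6.59 FPKM in wild type and at 11.1, 12.4 and 12.4 FPKM in the mutants. The homeobox zinc finger gene adnp2b was at 11.2 and 11.9 FPKM against 20.3, 22.1 and 19.3 FPKM. SOX, FOX, TBX and bHLH factors gave 16 of 207 with a median of 0.70. The proto-oncogene mycn was at 17.9 and 17.1 FPKM against 29.3, 31.5 and 27.0 FPKM, the progenitor factor sox4a at 30.4 and 31.0 FPKM against 41.6, 48.7 and 46.7 FPKM, and the forkhead factors foxd1 and foxp1b differed by 0.86 and 0.27. Nuclear receptors gave 5 of 73, with nr2f6a, nr1h3 and nr2f1a at 0.63, 0.54 and 0.52.

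Zinc finger genes of the ZNF and ZBTB types formed the second largest family by listed members, with 41 higher and 1 lower of 445 annotated. Most of their proteins have no described target. The gene znf1161 went from 1.45 and 1.52 FPKM to 4.18, 4.22 and 4.73 FPKM, znf609a from 10.7 and 10.9 FPKM to 18.2, 18.9 and 17.3 FPKM, and znf507 from 3.70 and 3.14 FPKM to 6.54, 6.35 and 6.29 FPKM. The lower member, znf999, was at 1.17 and 1.16 FPKM in wild type and at 0.109, 0.0370 and 0.137 FPKM in the mutants.

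The general transcription machinery followed the same direction. Mediator and TFIID subunits gave 9 higher and 1 lower of 55. The core promoter subunit taf3 was at 14.1 and 13.2 FPKM against 20.03, 20.1 and 21.3 FPKM, and med20 was at 1.12 and 0.835 FPKM against 3.45, 3.61 and 2.84 FPKM. RNA polymerase and Integrator subunits, with elongation factors, gave 10 of 73, all higher, among them the second largest polymerase subunit polr2b (5.79 and 5.91 against 8.08, 8.54 and 9.53 FPKM), the elongation factors supt6h and rtf1 (0.51 and 0.63), and ccnt1 (0.72).

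Replication genes had the highest median of the families with at least 3 listed members, cell type marker lists left aside. Of 70 annotated genes for replication origins and forks, 16 were listed, all higher, with a median of 0.83. Among all annotated genes 5.09% were listed, and 94.2% of listed genes were higher. Against the wild type mean the median was 0.71 in mutant 1, 0.82 in mutant 2 and 0.87 in mutant 3. The helicase subunit mcm6 was at 5.31 and 4.82 FPKM in wild type and at 11.4, 11.2 and 10.5 FPKM in the mutants, a difference of 0.99 ± 0.06. The primase subunit prim2 was at 3.51 and 3.57 FPKM against 7.499, 8.14 and 7.79 FPKM, the ligase lig1 at 3.82 and 3.32 FPKM against 6.43, 7.21 and 7.17 FPKM, and the polymerase alpha subunit pola2 at 2.62 and 3.16 FPKM against 5.41, 4.71 and 4.95 FPKM. Wild type 1 was at 4.73 FPKM for prim2, nearer the other wild types, and at 6.32 FPKM for pola2, above all mutants.

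Cyclins, CDKs and E2F factors gave 8 higher and 1 lower of 65. The G1 cyclin ccnd1, a known Wnt target, was at 33.4 and 31.1 FPKM in wild type and at 64.2, 81.5 and 86.9 FPKM in the mutants, a difference of 1.23 ± 0.17. The mitotic genes cdc20 (11.8 and 12.3 against 18.5, 20.6 and 17.6 FPKM) and ccnb1 (10.3 and 8.26 against 15.01, 15.4 and 13.8 FPKM) were higher too. So was rb1, which restrains entry into S phase, from 4.21 and 4.29 FPKM to 5.38, 5.63 and 6.19 FPKM, while wild type 1 was at 7.18 FPKM. The lower member was cks1b, a CDK partner.

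Cohesin and condensin genes, which hold and fold chromosomes, gave 11 of 43 in a narrow range of 0.21 to 0.61. The condensin subunit smc2 went from 0.856 and 0.885 FPKM to 1.60, 1.74 and 1.84 FPKM, and the cohesin subunits smc1al and stag2a differed by 0.48 and 0.21. Spindle and kinetochore genes gave 10 of 114, with ckap2l at 0.81, haus3 at 0.78, knl1 at 0.57 and cep85l at 0.42. DNA repair genes gave 12 of 119, led by the helicase blm, from 1.76 and 2.11 FPKM to 4.88, 4.75 and 5.02 FPKM. The damage-site proteins tp53bp1 and mdc1 differed by 0.59 and 0.57, and the p53 target sesn1 by 0.70.

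RNA processing contributed the largest family. Of 210 annotated splicing factors, 48 were listed, 46 higher and 2 lower, with a median of 0.57. The abundant RNA-binding gene khdrbs1a was at 212 and 225 FPKM in wild type and at 291, 284 and 278 FPKM in the mutants. The kinase prpf4ba (8.26 and 7.48 against 12.03, 11.6 and 12.01 FPKM), the splice-site factor luc7l (20.2 and 18.3 against 27.3, 28.0 and 28.3 FPKM) and the RNA-binding gene rbm4.3 (83.2 and 81.3 against 122, 129 and 133 FPKM) were similarly even within groups. The lower members were snrnp35, given above, and srsf3a.

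DEAD-box and DEAH-box helicases gave 11 of 56, with dhx33 at 0.87, ddx19 at 0.71, ddx49 at 0.59 and ddx18 at 0.49. Genes for mRNA 3′ ends and decay gave 27 of 156, all higher, lin28a among them. The deadenylase pan2 was at 0.786 and 0.728 FPKM against 1.59, 1.45 and 1.505 FPKM, the exosome subunit exosc3 at 1.14 and 1.20 FPKM against 2.23, 2.39 and 2.04 FPKM, and the small RNA effector ago1 at 4.80 and 5.37 FPKM against 8.12, 9.29 and 8.52 FPKM, with larp4ab at 0.46. Nuclear pore and transport genes gave 11 of 68, including the importins kpnb3 (0.87) and ipo13 (0.58), the Ran partner ranbp1 (0.76) and the pore seeding factor ahctf1 (0.53).

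Genes of ribosome assembly and of the ribosome itself were both listed. Ribosome biogenesis genes gave 22 higher and 1 lower of 99, and cytosolic ribosomal protein genes 4 higher and 1 lower of 97. The shares were 23.2% and 5.15%, where 5.09% of all annotated genes were listed. A missing gene is not thereby unchanged, so no contrast between these classes is read. The snoRNP core gene nop58 was at 13.8 and 13.1 FPKM against 23.3, 21.8 and 20.5 FPKM, and rrp9, which binds U3 snoRNA, at 0.423 and 0.684 FPKM against 1.95, 2.22 and 1.86 FPKM. Nucleolar nol8 differed by 0.65. Ribosomal protein rpl3 was at 405 and 428 FPKM against 476, 493 and 499 FPKM, a difference of 0.23 ± 0.04, while rps13 was lower, at 36.8 and 40.3 FPKM against 33.95, 32.1 and 31.2 FPKM. The genes rpl7l1 and rpl36a differed by 0.48 and 0.56. They were matched to the cytosolic ribosomal protein family by symbol alone, and whether the rpl7l1 product is part of the ribosome was not checked.

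Translation factors gave 15 of 90, all higher, where 5.09% of all annotated genes were listed and 94.2% of listed genes were higher. The initiation factor subunit eif3f had the largest difference of the family, from 1.06 and 1.19 FPKM to 4.67, 3.88 and 3.86 FPKM, and wild type 1 was at 1.48 FPKM. Its partners eif3ja and eif3ba differed by 1.03 and 0.80, and the scaffold eif4g1a by 0.45. The elongation factor eef1a1l1, among the most abundant mRNAs of the list, was at 1088 and 1172 FPKM in wild type and at 1346, 1726 and 1596 FPKM in the mutants. The 3 listed tRNA synthetases of 39, kars, larsb and cars, differed by 1.14, 0.68 and 0.58.

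Both mitochondrial families had higher and lower members. Since 5.09% of all annotated genes were listed and a missing gene is not thereby unchanged, no contrast between their shares is read. Mitochondrial ribosomal proteins gave 7 higher and 1 lower of 76, or 10.5%, with mrps18b going from 0.795 and 1.19 FPKM to 3.40, 3.35 and 3.00 FPKM, and with mrps23, mrpl37 and mrps2 at 1.35, 0.76 and 0.51. The lower one was mrpl13. Respiratory chain and ATP synthase genes gave 3 higher and 1 lower of 132, or 3.03%. The mitochondrially encoded complex I gene mt-nd4l was at 939 and 980 FPKM against 1231, 1717 and 1693 FPKM, with cox16 at 0.88 and ndufb4 at 0.41, while ndufa12 was at 1.34 and 1.63 FPKM in wild type and was listed at 0, 0 and 0.511 FPKM in the mutants.

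Protein turnover genes were mostly higher. Ubiquitin ligases and adaptors gave 26 higher and 1 lower of 395, among them trim33, which limits Smad signalling (13.05 and 13.8 against 19.1, 20.5 and 20.1 FPKM), peli2 (0.78), rnf145b (0.67) and mgrn1b (0.45). Deubiquitinases gave 13 of 77, all higher, with the p53 regulator usp7 at 11.6 and 11.7 FPKM against 15.3, 15.5 and 16.1 FPKM and with OTUD7A, usp32 and usp10 at 0.70, 0.55 and 0.53. Chaperones gave 14 higher and 2 lower of 140; hspd1 of the mitochondrial matrix, the co-chaperone stip1, the chaperonin subunit cct4 and dnajb12b differed by 0.57, 0.59, 0.37 and 0.34. Of 61 proteasome genes 3 were listed, or 4.92%, near the 5.09% of all annotated genes. These were psmf1, psmg3 and psmd7, at 0.72, 0.58 and 0.43.

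Wnt pathway genes, the pathway named in the title of the series, gave 16 of 137, or 11.7%, all higher, with a median of 0.68. For scale, 5.09% of all annotated genes were listed, and 12.7% of the genes tested were listed as higher. Of all listed genes 94.2% were higher, and their median was 0.62. How many of the 137 were tested is not known, so no excess of Wnt genes is read. They included both positive and negative components. Among receptors, fzd3a was at 2.46 and 3.10 FPKM in wild type and at 4.596, 4.30 and 4.70 FPKM in the mutants, and the co-receptor ryk at 10.04 and 10.6 FPKM against 12.2, 12.5 and 12.4 FPKM. Among effectors, bcl9, a co-activator of beta-catenin, was at 22.6 and 24.3 FPKM against 29.96, 31.3 and 33.98 FPKM, and dvl3b, which relays the receptor signal, was at 0.983 and 1.10 FPKM against 2.19, 3.22 and 3.61 FPKM. Among inhibitors, apc2, a destruction complex scaffold, was at 3.76 and 4.99 FPKM against 8.46, 9.16 and 10.1 FPKM. The secreted inhibitor dkk2 and its receptor partner kremen1 differed by 0.68 and 0.89, the beta-catenin blocker ctnnbip1 by 0.68, and the feedback inhibitor nkd1 by 0.69. The values of dvl3b, dkk2, kremen1, ctnnbip1 and nkd1 were chosen for display after they were seen, to show both arms. The other members were celsr3, amer2, gsk3b, csnk1a1, tle2a, vangl2 and csnk1da.

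Wild type 1 was held for 4 of these 16 genes. It was at 3.21 FPKM for kremen1 and 3.82 FPKM for tle2a, near the other wild types and below all mutants. For nkd1 it was at 5.34 FPKM, between the wild types at 3.74 and 3.75 FPKM and the lowest mutant at 5.88 FPKM. For csnk1a1 it was at 19.98 FPKM, above the mutants at 12.5 to 13.2 FPKM.

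Notch genes gave 7 of 60, all higher, where 5.09% of all annotated genes were listed and 94.2% of listed genes were higher. The ligand dla was at 2.17 and 3.08 FPKM in wild type and at 9.11, 7.19 and 5.44 FPKM in the mutants, and the Notch glycosyltransferase lfng was at 3.24 and 3.59 FPKM against 7.53, 11.5 and 7.42 FPKM. DTX4, a Notch-binding ubiquitin ligase, differed by 0.80, and the sheddase adam17a by 0.26, the sole listed gene of 138 metalloproteases and inhibitors. BMP and TGF-beta genes gave 7 of 101 with a median of 0.41, the lowest among families with at least 3 listed members that were all higher. The TGF-beta receptors tgfbr1b and tgfbr1a differed by 0.71 and 0.41, the activin receptor acvr1ba by 0.41, and the Smad co-repressor skilb by 0.34. Both listed hedgehog genes of 27, the effector gli2b (7.73 and 7.995 against 12.6, 10.02 and 11.7 FPKM) and the ligand exporter disp1 (3.47 and 3.20 against 6.36, 4.42 and 5.62 FPKM), were lowest in mutant 2 among the mutants.

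FGF and MAP kinase genes gave 12 of 175, with map2k6 at 0.78, map3k10 at 0.62, nras at 0.59 and map2k5 at 0.57 beside mapk11. Receptor tyrosine kinases gave 3 of 58. The growth factor receptor igf1ra was at 1.26 and 1.57 FPKM in wild type and at 4.19, 7.03 and 4.04 FPKM in the mutants, the ephrin receptor epha4l at 3.99 and 3.36 FPKM against 6.03, 7.33 and 7.19 FPKM, and the insulin receptor insrb at 10.1 and 7.53 FPKM against 11.9, 13.6 and 14.5 FPKM. Downstream, PI3K and mTOR genes gave 9 of 94 with a median of 0.75, including the translational repressor eif4ebp2 (17.8 and 19.5 against 30.8, 45.8 and 41.0 FPKM), the adaptor irs4a (0.60) and the kinase subunit pik3ca (0.50).

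Guidance genes gave 10 of 103, with the semaphorin co-receptor nrp2a at 15.7 and 14.97 FPKM against 23.1, 25.9 and 26.7 FPKM, the repellent slit1a at 5.61 and 5.95 FPKM against 8.92, 10.2 and 11.8 FPKM, and efnb3b at 0.48. Hippo and YAP genes gave 7 of 46, with taok3b, ctgfb, amotl2a and taok2a at 0.66, 0.64, 0.41 and 0.31. The retinoid and short-chain dehydrogenase list gave 2 of 64, dhrs11b (0.88) and dhrs7b (0.47), neither of which is an established retinoic acid enzyme in zebrafish. G protein-coupled receptors and G proteins gave 13 of 332, and the receptors gpr61 (0.298 and 0.239 against 1.66, 1.30 and 1.56 FPKM) and gpr185a (0.172 and 0.120 against 2.18, 1.31 and 1.45 FPKM) were below 1 FPKM in wild type. The receptor gpr63 and the G protein subunit gnb1b differed by 0.77 and 0.41.

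Small GTPases gave 10 higher and 1 lower of 213, with rab5ab of early endosomes at 0.85, rap1aa at 0.64, rnd3a at 0.55 and rab40c at 0.49. For rab5ab wild type 1 was at 23.4 FPKM, above the mutants at 21.6 to 21.8 FPKM and far from wild type 2 and 3 at 13.5 and 9.80 FPKM. Phosphatases gave 16 higher and 1 lower of 182, with ppp1cab, eya2 and ppm1g at 0.71, 0.69 and 0.59 and ptpn2a, which restrains JAK signalling in mammals, lower at -0.43.

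Shares of membrane and transport genes lay near the 5.09% of all annotated genes, except for ion channels at 1.25%. Solute carriers gave 23 higher and 1 lower of 448, the most abundant of those named being the ADP and ATP exchanger slc25a5 (293 and 315 against 428, 433 and 467 FPKM), with slc38a5b, slc25a51b and slc4a10a at 0.44, 0.35 and 0.28. Ion channels gave 5 of 400, including clcn3 (0.59), ano6 (0.45) and the connexin cx43.4 (0.41). Vesicle genes gave 13 higher and 2 lower of 300, with the syntaxin stx10 at 0.58 and SEC14L1 at 0.75 beside the lower sec61g. Pumps and flippases gave 6 higher and 1 lower of 128. The proton pump subunit atp6v0cb differed by 0.58, while the lysosomal pump atp13a2 was at 1.22 and 2.49 FPKM in wild type and at 0.0625, 0.198 and 0.349 FPKM in the mutants.

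Cytoskeletal genes gave 40 higher and 2 lower. Kinesins, dyneins and microtubule genes gave 19 of 222, with the motors kif4 and kif1aa at 0.55 and 0.50; kidins220b (0.52) was matched by its symbol and is a signalling scaffold, not a motor. Actin, myosin and linker genes gave 21 higher and 2 lower of 215, with the actin regulator abi1b at 0.93, shroom2a at 0.57 and nav2b at 0.56. Adhesion receptors gave 14 of 273, all higher: nrxn3a, nectin3b, celsr3 and pcdh19 differed by 0.95, 0.90, 0.79 and 0.64.

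Of 195 annotated collagens and matrix proteins 3 were listed, or 1.54%, and none is a cartilage collagen. The neural proteoglycan ncanb was at 3.58 and 4.92 FPKM in wild type and at 9.47, 11.4 and 9.65 FPKM in the mutants. In the opposite direction, ecm1b was at 1.11 and 1.05 FPKM against 0.703, 0.511 and 0.372 FPKM, and cspg5b at 1.82 and 1.60 FPKM against 1.22, 1.07 and 0.795 FPKM. None of the 29 cartilage markers and none of the 20 osteoblast markers was listed, so the list holds no value for chondrocyte genes such as sox9a, col2a1a, acana or matn1.

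Markers of other cell types were read next. Pigment cells arise from the crest. Of 16 melanophore markers 3 were listed, all higher, where 5.09% of all annotated genes were listed and 94.2% of listed genes were higher. Their summed level was 16.4 and 7.03 FPKM in wild type 2 and 3 and 36.7, 28.1 and 36.9 FPKM in the mutants. The sum holds only genes selected for this contrast, so its direction is not read. The melanosome tetraspanin gene tspan36 was at 1.56 and 0.498 FPKM in wild type and at 3.87, 3.40 and 4.14 FPKM in the mutants. Wild type 3 was less than wild type 2 in each of the 3 genes, and mutant 2 was the lowest mutant. The master regulator mitfa, pmela and tyr are not among the listed genes.

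Neuronal markers gave 6 higher and 1 lower of 47, with a summed level of 21.7 and 24.96 FPKM in wild type and 42.5, 48.2 and 36.7 FPKM in the mutants. These sums, too, hold listed genes alone, and their direction is not read. The largest part of these sums was stmn1b, chosen for display after its values were seen. It was at 11.9 and 13.7 FPKM in wild type and at 18.1, 22.9 and 17.8 FPKM in the mutants, a difference of 0.57. The intermediate filament gene inab was at 2.91 and 4.59 FPKM against 10.6, 10.5 and 8.05 FPKM, and gad1b, which makes GABA, at 0.748 and 1.20 FPKM against 3.02, 2.01 and 2.45 FPKM. The lower member, sncb, was at 1.78 and 2.36 FPKM in wild type and listed at 0, 0.644 and 0 FPKM in the mutants. The pan-neuronal genes elavl3 and elavl4 are not listed. The sole listed gene of 27 xanthophore and iridophore markers was alx4a, and 1 of the 2 listed of 20 otic markers was dlx4b, both of which are also on the crest and arch list. The otic gene oc90 was at 0.268 and 0.425 FPKM against 1.10, 1.42 and 0.877 FPKM. The progenitor and glial gene sox2 was at 11.2 and 8.97 FPKM against 16.4, 21.4 and 16.8 FPKM, and the keratin krt91 at 2.41 and 1.55 FPKM against 4.62, 6.40 and 5.83 FPKM. Whether the makeup of the sort moved with genotype was not tested.

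Of 62 muscle markers 2 were listed and of 97 lens and retina markers 2, below the 5.09% of all annotated genes, and these 4 were lower. The troponin tnnt3a was at 1.47 and 1.27 FPKM in wild type and listed at 0, 0 and 0.591 FPKM in the mutants. The troponin tnni4b.2 was at 1.15 and 1.01 FPKM against 0, 0 and 0.167 FPKM. The crystallin cryba1b was at 2.75 and 2.42 FPKM against 0.705, 0 and 0.221 FPKM, and crygm2d9 at 1.43 and 0.814 FPKM against 0 in all mutants. No marker of blood (28 annotated) or endothelium (20 annotated) was listed.

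Structured noncoding RNAs were the sole family with lower members alone. All 7 listed of 330 annotated were lower: 2 copies of SNORD15, which guides ribosomal RNA modification, 1 of U3, which is needed for ribosomal RNA cleavage, and 4 of the signal recognition particle RNA. The second SNORD15 copy was at 3607 and 6719 FPKM in wild type and listed at 0 in every mutant. U3 was at 10.5 and 9.02 FPKM and listed at 0 in every mutant. How the authors' counting divided reads between the SNORD15 copies is not given in the sources used here, so the value of each copy is uncertain. In wild type 1 both copies were at 1133 FPKM. An exact 0 in a table without counts can be a failed estimate, and no fold is given for these genes. In all, 12 of the 88 lower genes were listed at 0 in all 3 mutants.

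Wild type 1 gives a value that the selection of the list did not use. It is the third wild type library of the series, it does not enter the prdm3 table, and its values come from the authors' table for prdm16, which shares wild type 2 and 3. That table holds 339 of the 1520 genes, with wild type values equal within 0.01 in 338. These 339 genes were themselves selected for a difference between wild type and prdm16 mutants, so they are not a random part of the list. Wild type 1 was a control library in that selection, so its own value helped decide which genes are held. The counts below describe these genes and are no independent check of the list.

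Of the 309 higher genes held there, wild type 1 lay below all 3 prdm3 mutants in 224, or 72.5%, inside their range in 49 and above all of them in 36. It was nearer to the mean of wild type 2 and 3 than to the mutant mean in 162 of the 309. Its median position was 44.0% of the way from the wild type mean to the mutant mean, with quartiles of 0.991% and 83.3%. With wild type 1 alone as the control, the median difference of these genes was 0.36, against 0.63 with wild type 2 and 3, and 258 of 309 kept their direction. With all 3 wild types the median was 0.53, 307 kept their direction and 193 had a p below 0.05 by the same two-sided test.

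Of the 30 lower genes held there, wild type 1 lay above all mutants in 25, and its median position was -3.14%, with quartiles of -93.7% and 41.6%. The difference between higher and lower genes in this respect was not tested. The median difference was -0.75 with wild type 1 alone and -0.67 with wild type 2 and 3. Across all 2988 genes of the prdm16 table wild type 1 was a median of 0.16 above the mean of the other wild types on the log2 scale, and in the 309 genes it was 0.29 above. The list was chosen on wild type 2 and 3, so their values are not independent of the selection, and the part of this in the position of wild type 1 was not tested.

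**Figure D5:**
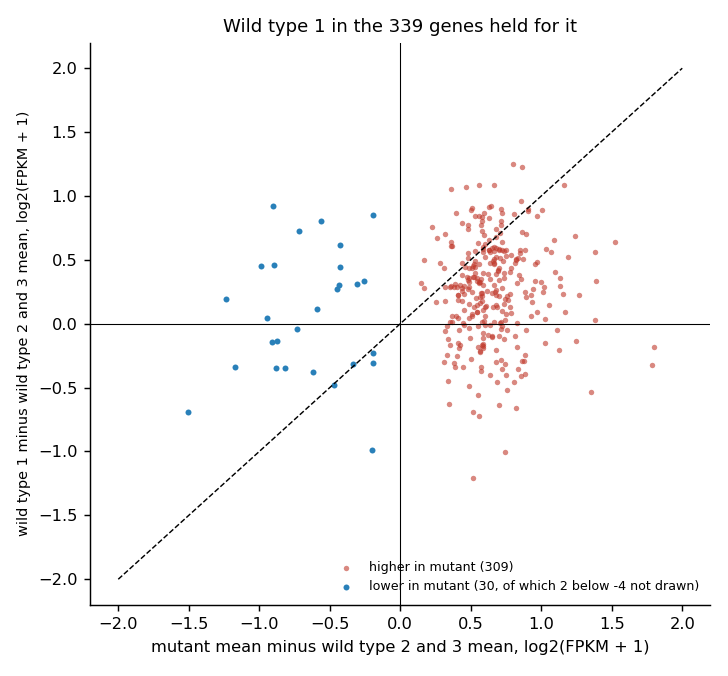
Wild type 1 minus the mean of wild type 2 and 3 (vertical) against the prdm3 mutant mean minus the mean of wild type 2 and 3 (horizontal), both in log2(FPKM + 1), for the genes held for wild type 1. Points on the dashed line have wild type 1 equal to the mutant mean, points on the horizontal axis have it equal to the other wild types, and the 309 higher genes spread around a median position of 44.0% between them.

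Single genes with wild type 1 values show both outcomes. For dnmt3ba it was at 5.17 FPKM, beside wild types at 5.67 and 5.72 FPKM, and for slbp at 1.57 FPKM, below wild types at 2.32 and 2.11 FPKM. For sncgb it was at 1.45 FPKM, between 1.64 and 1.18 FPKM, and for lin28a at 18.3 FPKM, above 9.53 and 13.5 FPKM but below the mutants. In the same table, 293 of the 309 genes had a lower mean in the prdm16 mutants than in the 3 wild types, 244 of them listed at 0 in both prdm16 mutant libraries, and 16 had a higher mean. All 30 lower genes were lower there too. The share of all 2988 genes of that table that were lower, or listed at 0 in both prdm16 mutants, is not given here. These counts may therefore only reflect that table as a whole. These comparisons also share wild type libraries and the zeros may be failed estimates, so the values are set side by side and no overlap is read from them.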

How the data were processed

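RNA from 5 libraries was compared: 3 prdm3 mutant and 2 wild type. The authors deposited FPKM values per gene and library, group means in FPKM, a signed fold change (a score, not used), and p-values and q-values. Build danRer11 and the tools Cufflinks, TopHat2 (2.1.1), Bowtie2 (2.4.4), bedtools (2.30.0), Genrich and cutadapt come from the submitters' processing notes, which give no roles. That the values are FPKM was taken from those tools and the values; depth is unknown, so no counting interval is given. The labels mark mutant 2 and wild type 1 as cleaned, without saying how.

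Differences are means of log2(FPKM + 1), pseudocount 1, mutant minus wild type. A two-sided equal-variance test on these values gave the authors' p within 0.103%, which is how the test behind the deposited p-values was identified. Multiple testing was recomputed over 11242 genes. The alternatives used Python 3.11.15, numpy 2.4.6, scipy 1.17.1 and limma 3.58.1. The fits were tested on simulated data. SE is the pooled standard error, with 2 wild type and 3 mutant libraries.

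Families were matched by symbol, with or without a copy suffix such as the last digit of dnmt3bb.2 (1486 of 1520 identifiers have a symbol in the identifier table). Members, families and lists were chosen with earlier results of these data known. Named genes are those with q below 0.05, the 12 largest differences in each direction (above 0 in all libraries, mean of at least 5 FPKM, no clone name), up to 4 per family by smallest authors' p, the 6 highest in wild type and the 6 with the smallest p. Any other gene named or given values was chosen after its values were seen, which is said for some of them and not for all. No column of per-sample values was left out of the mapping. Chromatin accessibility was not used here, and some genes that the rule names and 1 family are not reported here.

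The replicate numbers of the titles were not taken as pairs: deviations from the group mean correlated at -0.05 for number 2 and -0.03 for number 3. By the numbers that begin the column names, both wild types share a number with mutant 3. Deviations in mutant 3 correlated at 0.03 with wild type 2 and at -0.03 with wild type 3, and no second pair can be formed. With 2 wild types their deviations are mirror images, so the values for wild type 2 and 3 are not separate checks. They were also computed on genes whose selection favours a small spread.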

Additional observations from a re-analysis of the deposited data

How the results depend on the processing

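No alternative changed the direction of any of the 1520 genes, except that 3 of 339 changed when wild type 1 was added. The groups of every listed gene did not overlap, so only adding wild type 1 could change a direction. The unchanged directions under the other alternatives were fixed by the selection and are no support. Of the 1432 higher and 88 lower genes at p below 0.05, between 533 and 805 and between 33 and 42 remained at p below 0.05 when 1 library was left out in turn, so leaving out any library moved the counts by more than 1.5 times. Higher genes numbered 533 without wild type 2, 554 without wild type 3, 702 without mutant 2, 722 without mutant 3 and 805 without mutant 1. Without either wild type library the control is 1 library, assumed to vary like the mutants, so these p-values rest on the spread of the mutants alone. Genes at q below 0.05 ranged from 0 (without any of the mutant libraries) to 15 (without wild type 2). Genes outside the list could not be refitted and were counted as failing. Of the 245 named genes, 166 kept p below 0.05 without wild type 2 and 166 without wild type 3. A mean of at least 5 FPKM left 776 higher and 13 lower genes. Genes above 0 in all libraries held 1 gene at q below 0.05, and a pseudocount of 0.1 gave 5. With wild type 1 added, 193 higher and 24 lower of 339 genes passed, with 1 at q below 0.05. limma gave 1221 at q below 0.05, but its shared spread was estimated on genes selected for small spread. For the other changes the cause was not tested.

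With the replicate number of the titles as a block, 333 higher, 19 lower and 0 genes at q below 0.05 passed with 1 residual degree of freedom. The column names begin with other numbers, of which 4 is shared by both wild types and mutant 3, while mutants 1 and 2 carry 1 and 3. With these as a block, an alternative added after seeing the data, 292 higher, 18 lower and 2 genes at q below 0.05 passed, again with 1 residual degree of freedom, and the difference then rests on mutant 3. Neither numbering is said in the labels to pair the samples. The family medians that turned sign were Mediator and TFIID (-0.41, 1 gene) and 1 signalling family (-0.30, 2 genes) with wild type 1 added, and matrix proteins (0.34 and 1.10) with means of at least 1 and 5 FPKM, each because fewer members were left. Wild type 1 lay below every mutant in 224 of 309 genes, 232 to 239 without 1 mutant, and 91 of 138 with a mean of at least 5 FPKM, alternatives chosen after seeing the data. The planned comparison with chromatin peaks at start sites was not run. With 2 and 3 libraries and unknown depth, small differences at low FPKM are not resolved.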

Other observations

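Groups outside the families were picked after their values were seen and are given as values. Only listed genes could be picked, and 94.2% of those were higher, so a shared direction within a group is not read. Genes that supply, chaperone or deposit histones included npat, which drives histone gene transcription (2.12 and 2.30 FPKM in wild type, 4.76, 5.21 and 5.88 FPKM in the mutants), the chromatin assembly subunits chaf1a (5.95 and 6.99 against 9.40, 10.4 and 13.5 FPKM) and chaf1b (4.38 and 4.50 against 6.41, 7.59 and 9.14 FPKM), asf1bb, nasp, daxx and hirip3. With slbp, all 8 were higher, by 0.44 to 1.79. The histone-binding SET and ANP32 genes seta, setb, anp32a, anp32b and anp32e were all higher, by 0.63 to 0.93, and setb was the most even, at 53.4 and 55.1 FPKM against 81.8, 87.3 and 83.9 FPKM.

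Heterochromatin protein genes went both ways. The gene cbx5 was at 82.9 and 80.4 FPKM in wild type and at 120, 109 and 111 FPKM in the mutants, whereas cbx1a was at 2.48 and 2.49 FPKM against 0.653, 1.38 and 0.731 FPKM, and cbx3b at 3.15 and 3.14 FPKM against 1.81, 1.77 and 2.45 FPKM. The lamina genes lbr, lmnb2, tmpoa and tmpob differed by 0.62, 0.64, 0.62 and 0.72.

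The clock genes per1b, per3, tefa and ciarta were higher by 0.47, 0.41, 0.32 and 0.78, and the cold-inducible RNA-binding genes cirbpa and cirbpb by 1.04 and 0.68. The nuclear long noncoding RNA CR383676.1, malat1 in the identifier table, was at 931 and 838 FPKM in wild type and at 1333, 1870 and 1518 FPKM in the mutants. The small phosphatases ctdsplb, ctdspla, ctdspl2a, ctdspl2b and ctdp1, relatives of enzymes that act on the tail of RNA polymerase II, differed by 0.51 to 0.87.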
